A study of Mus musculus with 24 samples.

Results

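The 9 genes studied here mark the layers and projection classes of cortical excitatory neurons, and were followed through bulk RNA-seq of the mouse anterior cingulate cortex. Cux1, Cux2, Rorb, Etv1, Fezf2, Bcl11b, Tbr1, Foxp2 and Slc17a7 were taken by name from the 15232 genes of the deposited table, and all 9 passed the filter on low values, a mean of at least 1 FPKM (fragments per kilobase, a level scaled by gene length and library depth), that left 12572 genes for testing. They were compared between the arms of the study, and across libraries as a reading of which cortical depth, and which tissue beside it, each dissection held. Each of the 24 libraries came from 1 animal, with 4 females and 4 males in each of 3 arms. One arm is labelled wild type (WT) and untrained, one is labelled Thbs1/2 KO and untrained, and one is labelled Thbs1/2 KO and trained. Astrocytes secrete the thrombospondins that Thbs1 and Thbs2 encode, and the labels name no promoter or Cre for the KO. Trained animals worked in Skinner boxes and were deprived of food for it, while untrained animals had food and water freely, so training and food deprivation cannot be told apart. The strain and age of the animals were not given in the sources used here, and trained WT animals are not analysed here.

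Excitatory neurons of the cortex are born in an inside-out order and settle into layers that send axons to different targets. A small set of transcription factors holds these fates apart, partly by repressing each other: Tbr1 in layer 6 neurons, which project to the thalamus, holds down Fezf2 and Bcl11b, which specify the layer 5 neurons that project to the brainstem and spinal cord. The cingulate cortex of the mouse has no distinct layer 4. Bcl11b and Foxp2 are not restricted to cortex, being also strongly expressed by the projection neurons of the striatum, which lies beneath the cortex across the white matter.

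Upstream sequence is shown for 3 members: Slc17a7, and Etv1 and Rorb, whose transcripts are poorer in GC. In mean FPKM, Etv1 was lower in males than in females, and Slc17a7 and Rorb were higher, differences whose tests are given below. The 250 bases before the start in RefSeq's promoter table (GRCm38.p6) are printed 5′ to 3′ on the gene's strand, with matches to the E-box CANNTG, the core site of basic helix-loop-helix factors, in capitals. They lie at chr7:45163671-45163920 on the + strand for Slc17a7, chr12:38779832-38780081 on the + strand for Etv1 and chr19:19111197-19111446 on the - strand for Rorb, each just before the gene's full span.
Slc17a7: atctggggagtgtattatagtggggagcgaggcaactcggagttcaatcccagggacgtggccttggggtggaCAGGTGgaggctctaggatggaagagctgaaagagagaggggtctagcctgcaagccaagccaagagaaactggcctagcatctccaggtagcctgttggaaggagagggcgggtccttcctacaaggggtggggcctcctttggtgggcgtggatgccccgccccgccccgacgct
Etv1: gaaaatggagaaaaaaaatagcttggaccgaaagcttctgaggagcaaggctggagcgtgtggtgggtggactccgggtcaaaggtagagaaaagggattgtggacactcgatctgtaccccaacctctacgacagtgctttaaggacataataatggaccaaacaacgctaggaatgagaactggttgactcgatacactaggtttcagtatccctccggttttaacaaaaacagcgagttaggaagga
Rorb: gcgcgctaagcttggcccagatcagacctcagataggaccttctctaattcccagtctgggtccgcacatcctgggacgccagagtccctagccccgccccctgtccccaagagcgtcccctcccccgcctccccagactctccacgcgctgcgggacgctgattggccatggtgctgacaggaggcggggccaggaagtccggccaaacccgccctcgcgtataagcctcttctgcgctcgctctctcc

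The Slc17a7 window held 1 E-box, CAGGTG, and these windows of Etv1 and Rorb held none. A second window of Etv1 (chr12:38783461-38783710) held 3 E-boxes, and a second window of Rorb (chr19:19001118-19001367) held 2, none of them CAGGTG. Whether Etv1 and Rorb have an E-box therefore depends on the window. An E-box in such a window is common, at 66.2% of the 32851 windows in the table, whereas CAGGTG on either strand, searched once the E-boxes had been read, occurred in 17.2%. The Tbr1 window and both Cux2 windows held CAGGTG as well, and those of Cux1, Fezf2 and Bcl11b did not. The T-box motif GGTGTGA, searched on both strands and present in 3.33% of windows, was in none of the 11 windows of the 8 members that matched. GC content of the printed windows was 61.2% for Slc17a7, 46.4% for Etv1 and 66% for Rorb, against a median of 52.4% over the table. A match is a description of letters only, and no match says nothing of a factor's binding.

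Whole reads could be recovered from the FPKM steps, and depth was 12343773 to 27233267 reads a library. The reads behind the scarcest member, Foxp2, ran from 156 to 1617 a library, and those behind Slc17a7 from 16148 to 34968, so that counting error is larger for Foxp2. The transcripts of the deleted genes ran opposite to the genotype labels: Thbs1 lay at 0.254 to 0.716 FPKM in the 8 libraries labelled WT and at 2.77 to 5.91 FPKM in the 16 labelled KO, and Thbs2 was also higher in those labelled KO. Arms are therefore named by their labels throughout. All 8 trained animals carried animal numbers over 1000, as did 2 untrained males labelled KO and 1 male labelled WT, and the other 13 animals had numbers under 1000.

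There were 2 libraries that stood apart in these markers, and results that rest on them are given with and without them. In male untrained library 3 labelled KO, also the deepest library, 5 of the 9 markers lay below every one of the 23 other libraries and 2 lay above every one. Fezf2 was at 4.69 FPKM there against a median of 20.9 FPKM in the others. Tbr1 was at 12.6 FPKM against 41.6 FPKM, and Etv1 at 8.14 FPKM against 26.8 FPKM. Cux2 was at 6.50 FPKM against 15.8 FPKM, and Slc17a7, the vesicular glutamate transporter of cortical excitatory neurons, at 190.8 FPKM against 509.3 FPKM. Among these 5 the difference was smallest for Cux2, at 2.44-fold, and largest for Fezf2, at 4.45-fold. Foxp2 and Bcl11b went the other way, at 7.94 FPKM against 2.53 FPKM and at 15.7 FPKM against 8.43 FPKM. Cux1 (6.08 FPKM) and Rorb (2.48 FPKM) lay inside the range of the others. Over all tested genes, 18.4% lay below every other library in this one and 13.5% above. The lists of other layer markers went both ways, with 6 below and 4 above of 12 upper-layer genes, 7 below and 1 above of 13 layer 5 genes and 6 below and 2 above of 13 layer 6 genes. Their median differences were -0.39, -0.33 and -0.30 on the log2(FPKM + 1) scale.

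Markers of other tissue and of other neurons also stood apart in this library. All 10 tested striatal markers were above every other library, with a median difference of 2.38 on the log2(FPKM + 1) scale. The dopamine receptor Drd2 was at 29.9 FPKM against a median of 1.05 FPKM, and the adenosine receptor Adora2a at 19.2 FPKM against 1.17 FPKM. Both tested septal markers were above all others too, with Zic1, a zinc-finger factor of the septum, at 52.0 FPKM against 1.85 FPKM. Of the general excitatory genes 10 of 12 were below all others, and so were 8 of 10 partners in cortical fate. Of the white matter genes 9 of 10 were below all others, and of the inhibitory neuron markers 5 of 8 were above and 2 below. In bulk tissue, fewer cells of a type and less RNA per cell cannot be told apart.

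The other library was trained female library 2. Cux2 (9.60 FPKM), Tbr1 (33.5 FPKM) and Foxp2 (1.35 FPKM) were below all of the 22 libraries that remain when male library 3 is set aside too, and none of the 9 was above. Over all tested genes 5.84% were below and 6.24% above. All 4 tested hippocampal markers were above the other 22, with Prox1, a factor of dentate granule cells, at 9.23 FPKM against a median of 2.85 FPKM. Striatal markers were low there instead, 3 of 10 below all others and 0 above. The part that neighbouring tissue plays in any difference between arms was not tested.

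**Figure D1:**
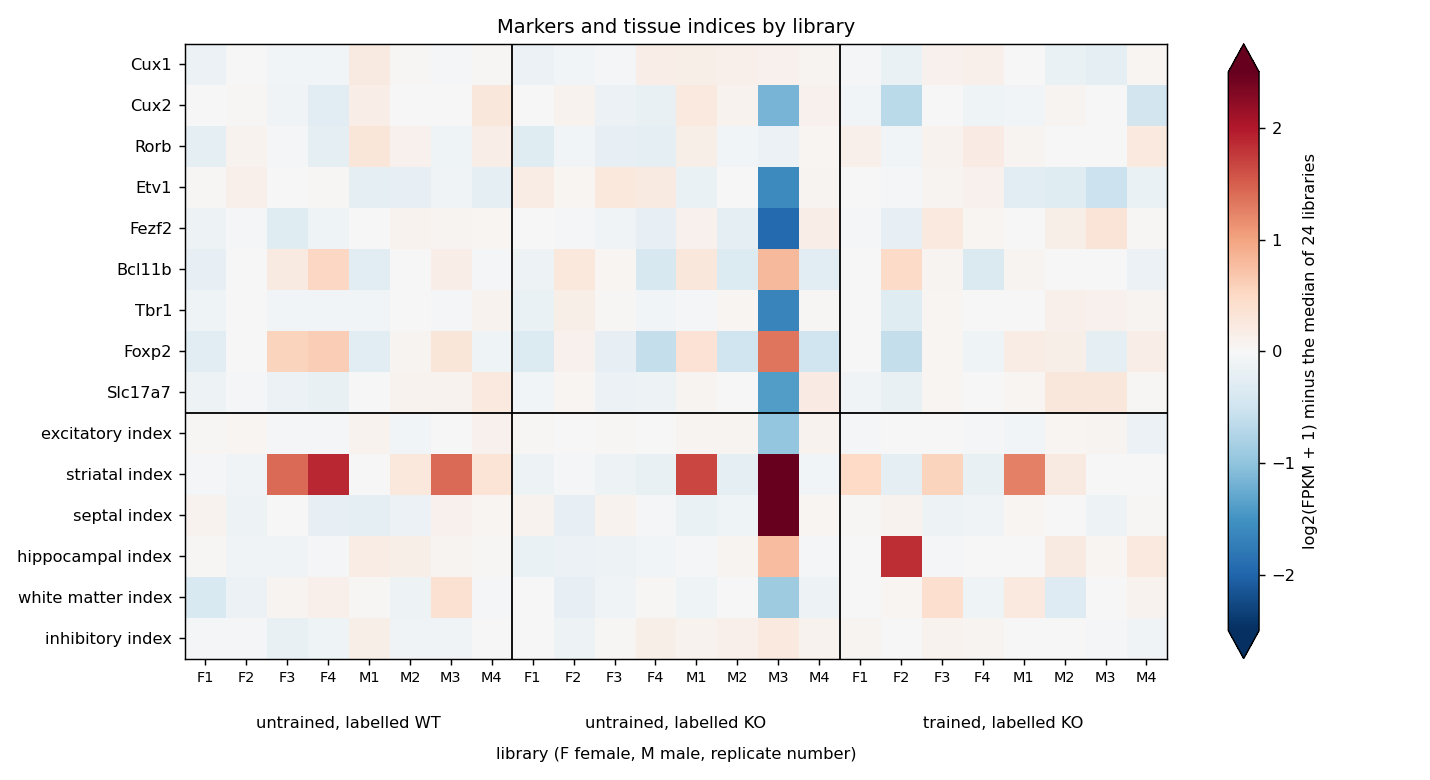
Each cell gives 1 library's log2(FPKM + 1) minus the median of the 24 libraries, for the 9 markers (above the line) and for indices that average log2(FPKM + 1) over a marker list (below it); columns are the libraries by arm and sex. Male untrained library 3 labelled KO is the column with 5 low and 2 high markers and high striatal and septal indices, trained female library 2 has a high hippocampal index, and 5 other libraries have a raised striatal index.

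Levels in FPKM are per length of gene, so an order among genes rests on the length used and on base composition. Gene spans are given in GRCm38.p6 coordinates. Among the upper-layer markers, Cux2 was higher than Cux1 in FPKM. Their median reads a library were near each other, 1330 for Cux2 and 1377 for Cux1, over lengths of 5113 and 15378 bases. Cux2 (chr5:121857962-122050415), a homeobox factor of layer 2 to 4 neurons, had a lowest, median and highest value of 13.1, 16.02 and 19.5 FPKM in the arm labelled WT. The untrained arm labelled KO gave 6.50, 16.3 and 19.0 FPKM, and the trained arm 9.60, 14.9 and 16.7 FPKM. The low ends of these 2 arms are the libraries that stood apart, and the 3 arms overlapped. Cux1 (chr5:136248135-136567590), its paralogue and broader in expression, gave 4.90, 5.44 and 6.64 FPKM in the arm labelled WT, 4.95, 5.95 and 6.38 FPKM in the untrained arm labelled KO and 4.60, 5.46 and 6.12 FPKM in the trained arm. Rorb (chr19:18930609-19111196), a nuclear receptor that marks layer 4, was scarce, at 2.30, 2.95 and 3.79 FPKM, then 2.12, 2.58 and 3.27 FPKM, then 2.69, 3.08 and 3.57 FPKM in the same order of arms. All trained Rorb values lay above the median of the untrained arm labelled KO, and the arms still overlapped.

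The layer 5 markers were of middle abundance. Etv1 (chr12:38780082-38870483), an ETS factor of layer 5 neurons that project mainly within the forebrain, gave 22.4, 25.9 and 29.3 FPKM in the arm labelled WT, 8.14, 27.9 and 32.5 FPKM in the untrained arm labelled KO and 18.2, 25.0 and 28.8 FPKM in the trained arm. Fezf2 (chr14:12338992-12346803), the zinc-finger factor that directs the subcerebral fate, gave 16.8, 20.5 and 22.0 FPKM, then 4.69, 19.8 and 23.6 FPKM, then 18.0, 21.3 and 26.4 FPKM. Bcl11b (chr12:107910403-108004145), which acts downstream of Fezf2, gave 6.89, 8.42 and 12.6 FPKM, then 6.11, 8.22 and 15.7 FPKM, then 6.33, 8.49 and 12.1 FPKM. For Bcl11b the highest library of each arm stood well above its median, and these were WT female 4, male untrained 3 and trained female 2.

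Of the layer 6 markers, Foxp2 was the most variable member, and Tbr1 the steadiest once male untrained library 3 is left out. Tbr1 (chr2:61802863-61814114), a T-box factor, gave 38.3, 40.0 and 44.0 FPKM in the arm labelled WT, 12.6, 41.5 and 46.2 FPKM in the untrained arm labelled KO and 33.5, 42.5 and 45.2 FPKM in the trained arm. Foxp2 (chr6:14901349-15441977), a forkhead factor, gave 1.97, 2.62 and 4.43 FPKM, then 1.37, 1.95 and 7.94 FPKM, then 1.35, 2.63 and 3.05 FPKM. Without male untrained library 3 the coefficient of variation of FPKM over 23 libraries was 6.77% for Tbr1, lower than that of all but 10.3% of tested genes, and 33.4% for Foxp2, higher than that of 97.8% of them. The median tested gene was at 11.3%. Over all 24 libraries the same values were 16.1% for Tbr1, above that of Rorb and of Cux1 (9.74%), and 50.1% for Foxp2.

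Slc17a7 (chr7:45163921-45176139) was the most abundant member by far, at 442.4, 494.4 and 597.0 FPKM in the arm labelled WT, 190.8, 494.1 and 578.6 FPKM in the untrained arm labelled KO and 443.1, 517.3 and 616.2 FPKM in the trained arm. By median over the 24 libraries the order was Slc17a7 (504.4 FPKM), Tbr1 (41.6 FPKM), Etv1 (26.7 FPKM), Fezf2 (20.8 FPKM), Cux2 (15.8 FPKM), Bcl11b (8.43 FPKM), Cux1 (5.54 FPKM), Rorb (2.86 FPKM) and Foxp2 (2.56 FPKM). Rorb and Foxp2 differed by less than the spread of either. Over the 23 libraries without male library 3 the ranges of Etv1 and Fezf2, of Fezf2 and Cux2, of Cux2 and Bcl11b and of Bcl11b and Cux1 also overlapped, and those of Slc17a7 and Tbr1, of Tbr1 and Etv1 and of Cux1 and Rorb did not.

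**Figure D2:**
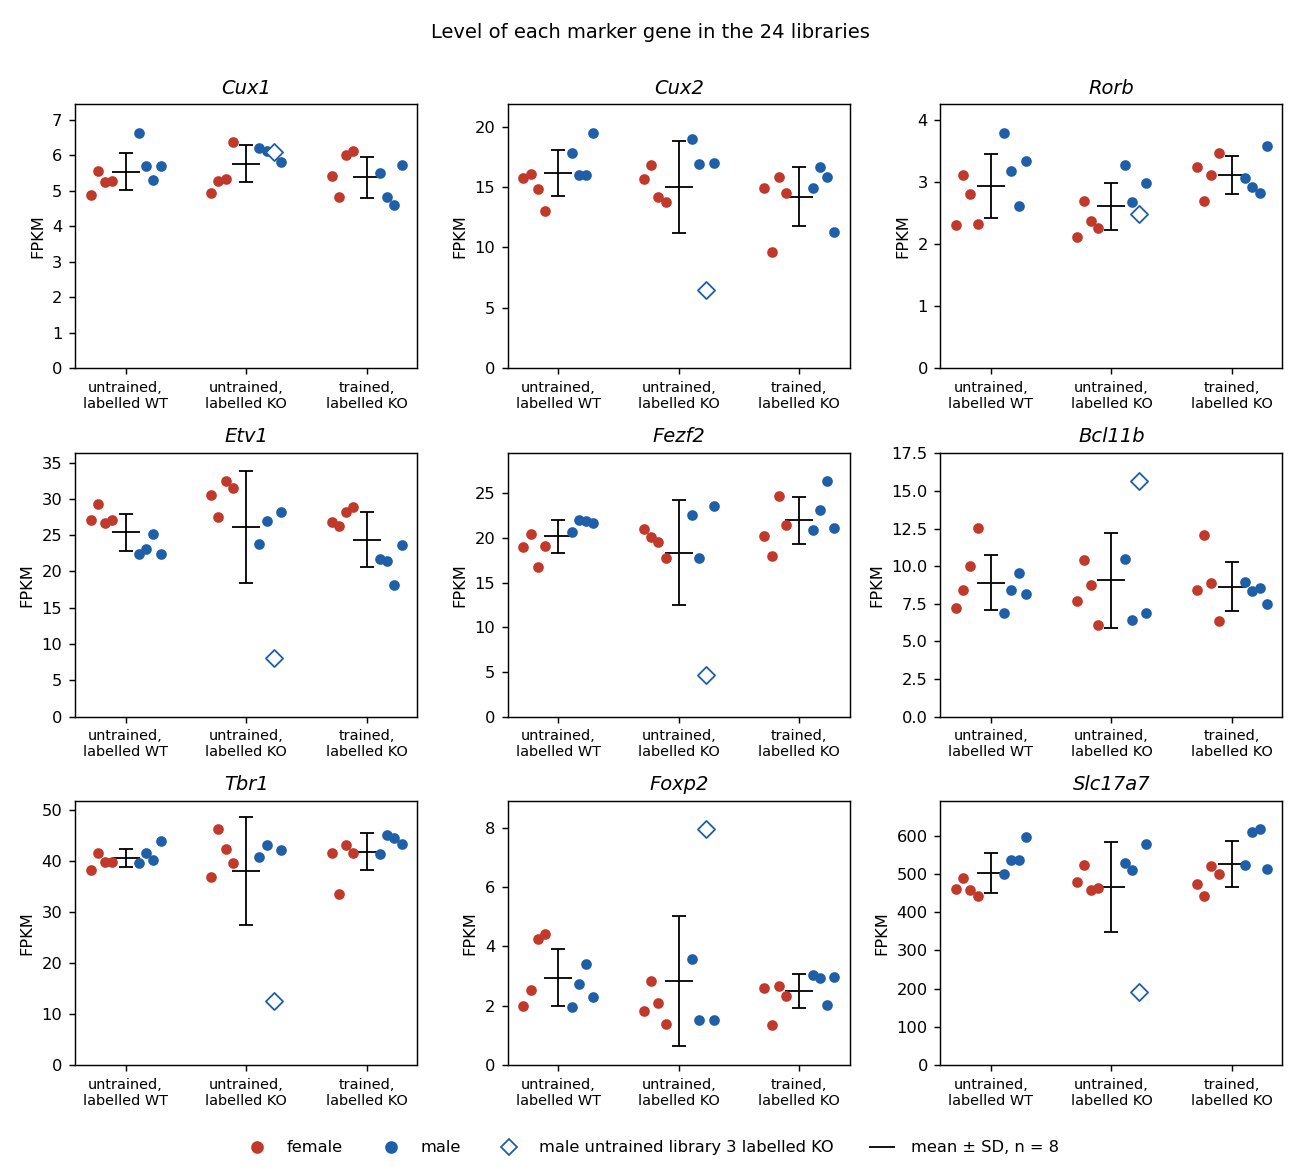
FPKM of each marker (y axis from 0) in each of the 24 libraries by arm, females red and males blue, with the mean and SD of the 8 libraries of an arm in black. The open diamond is male untrained library 3 labelled KO, which is lowest for Cux2, Etv1, Fezf2, Tbr1 and Slc17a7 and highest for Bcl11b and Foxp2.

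Between the untrained arms, labelled KO against labelled WT, none of the 9 markers passed. In limma, 1.42% of all tested genes had an adjusted p under 0.05, in either direction, and 1600 genes had an unadjusted p under 0.05, none of the 9 among them. Differences on the log2(FPKM + 1) scale, which understates those of low genes such as Rorb and Foxp2, ran from -0.23 for Fezf2 (SE 0.225) to 0.05 for Cux1 (SE 0.0501), with a median of -0.144, against -0.00139 over all tested genes. Of the 9, 8 were negative. This lean rested on male library 3: without it the median was 0.0197, Cux2, Tbr1, Fezf2, Slc17a7 and Etv1 turned positive, and their intervals narrowed. Tbr1 then stood at 0.04 (95% confidence interval -0.05 to 0.12) and Slc17a7 at 0.03 (-0.07 to 0.12). Without that library 2.7% of tested genes were called and again 0 of the 9, with Etv1 nearest at 0.15 (SE 0.0441, limma adjusted p = 0.0756). Foxp2 then stood at -0.36 (SE 0.159, limma unadjusted p = 0.0382, adjusted p = 0.256), and the striatal index, the mean log2(FPKM + 1) of 11 striatal genes, had a median of 1.85 in the 7 remaining libraries labelled KO and 2.28 in those labelled WT. The part of striatal tissue in the Foxp2 value was not tested.

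Training, within the arms labelled KO, also left the 9 markers without a call, where 5.67% of tested genes passed in limma. Rorb came nearest, with means of 2.60 ± 0.382 FPKM (SD, n = 8) untrained and 3.11 ± 0.306 FPKM (SD, n = 8) trained, a log2 difference of 0.19 (SE 0.0656, adjusted p = 0.0921 in limma). With a correction for GC content and length it was 0.28 (limma adjusted p = 0.0199) and passed, and without male library 3 it was 0.27 with the correction (limma adjusted p = 0.0246) and 0.18 without (limma adjusted p = 0.115). Fezf2, at 0.34 (SE 0.226), and Slc17a7, at 0.22 (SE 0.174), had wide intervals, and male library 3 sits in the untrained arm. Without that library they stood at 0.10 and 0.04, Tbr1 at -0.00066 (SE 0.0566), and 6.78% of tested genes were called. One of the 9 was then among them. Etv1 lay at 23.7 to 32.5 FPKM in the 7 untrained libraries and at 18.2 to 28.8 FPKM in the 8 trained ones, ranges that overlapped, and fell by 0.21 in the trained arm (SE 0.0580, limma adjusted p = 0.0358). With trained female library 2 also left out Etv1 stood at -0.21 (limma adjusted p = 0.0658), and across the other alternatives without male library 3 its adjusted p ran from 0.0283 to 0.341. Animal number moves with training: among the males labelled KO with numbers over 1000, 4 trained against 2 untrained, Etv1 differed by -0.25 and Rorb by 0.04. Cux2 stood at -0.20 without male library 3 (limma adjusted p = 0.193) and at -0.13 without trained female library 2 as well.

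The trained arm labelled KO and the arm labelled WT differ in both labels, and neither holds male untrained library 3. A share of 24.5% of tested genes passed in limma, and 0 of the 9 markers did, with 0 of 9 also at an unadjusted p under 0.05. Cux2 was lowest, at -0.18 (SE 0.0910, 95% confidence interval -0.38 to 0.01, limma adjusted p = 0.147), and Fezf2 highest, at 0.11 (SE 0.0606, limma adjusted p = 0.175). Without trained female library 2, the lowest of its arm, Cux2 stood at -0.119 and did not pass. The intervals of Tbr1 (-0.06 to 0.14), Slc17a7 (-0.05 to 0.17) and Etv1 (-0.17 to 0.04) were the narrowest. The median of the 9 was -0.0376, against 0.00322 over all tested genes. Trained libraries labelled KO enter both this comparison and that of training, the libraries labelled WT enter both this and the genotype comparison, and the untrained ones labelled KO enter the other pair, so the 3 sets of values are not independent.

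**Figure D3:**
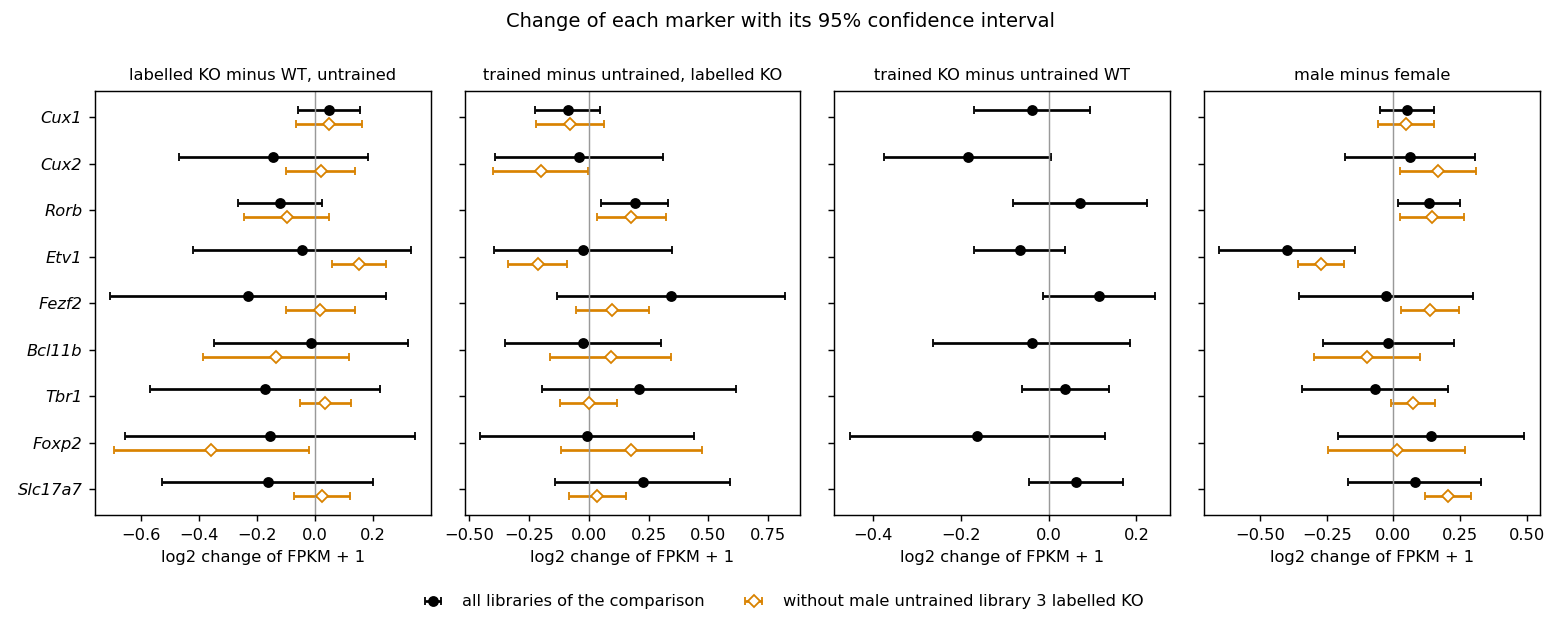
Difference in mean log2(FPKM + 1) (x axis, with its 95% confidence interval) for each marker in 4 comparisons, with all libraries (black) and without male untrained library 3 labelled KO (orange; not part of the third comparison). Without that library Fezf2 for the genotype label moves from -0.23 to 0.02 and its interval narrows, and Etv1 lies below 0 for sex either way.

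Sex gave the only call with all libraries in and no correction for GC content. The male mean of Etv1 was 22.1 FPKM and the female mean 28.5 FPKM, a log2 difference of -0.40 (SE 0.123, adjusted p = 0.0182 in limma). It was the 1 of 9 called where 28.6% of tested genes passed. The 12 females lay at 26.2 to 32.5 FPKM and the 11 males other than male library 3 at 18.2 to 28.2 FPKM. In the arm labelled WT every female (26.7 to 29.3 FPKM) was above every male (22.4 to 25.2 FPKM), and in the trained arm every female (26.2 to 28.8 FPKM) was above every male (18.2 to 23.7 FPKM). In the untrained arm labelled KO females (27.6 to 32.5 FPKM) and males (8.14 to 28.2 FPKM) overlapped. Without male library 3 the Etv1 difference was -0.27 (SE 0.0419, adjusted p = 0.000244 in limma). Within animal numbers under 1000 and without that library the difference was -0.23, and within numbers over 1000 it was -0.28.

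Without male library 3, 33% of tested genes and 3 of the 9 markers were called for sex. Slc17a7 was higher in males, at 0.21 (SE 0.0415, adjusted p = 0.000985 in limma), from 475.9 FPKM in 12 females to 549.9 FPKM in 11 males, and Fezf2 rose by 0.14 (SE 0.0527, limma adjusted p = 0.0471), from 19.8 to 22.0 FPKM. With trained female library 2 left out as well Fezf2 stood at 0.12 (limma adjusted p = 0.0892) and Slc17a7 at 0.19 (limma adjusted p = 0.00204). Neither call held after a correction for base composition. The transcripts of Slc17a7 and Fezf2 have 56.6% and 56.7% GC, those of Etv1 and Rorb 43.8% and 42.0%, and the median tested gene 50.3%. With each library corrected for the GC content and length of genes, and male library 3 left out, Slc17a7 stood at 0.07 (limma adjusted p = 0.259) and Fezf2 at -0.00393 (limma adjusted p = 0.974). Etv1 still fell in males, by 0.16 (limma adjusted p = 0.0382), and Rorb rose by 0.35 (limma adjusted p = 0.0032). With all 24 libraries and the same correction Etv1 stood at -0.29 (limma adjusted p = 0.214) and did not pass, and Rorb was called in its place, at 0.34 (limma adjusted p = 0.00448). Without the correction Rorb stood at 0.13 (limma adjusted p = 0.0785).

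The difference of an effect between the sexes was tested as an interaction. For genotype label by sex 0 of the 9 markers passed in limma and 0% of tested genes did, with 394 at an unadjusted p under 0.05. For training by sex 0 of the 9 passed and 0.00795% of tested genes, which is 1 gene, with 1952 at an unadjusted p under 0.05. The count of genes called for training by sex was 194 without male library 3 and 243 with all 24 libraries in one fit, and that for genotype label by sex was 0 in both, with 0 of the 9 called without that library. Among the 9 the estimates for the genotype label ran from -0.57 for Fezf2 (SE 0.442) to 0.66 for Foxp2 (SE 0.461), and male library 3 is 1 of the 4 libraries of its group.

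How the markers varied across libraries was then examined against 3 indices of neighbouring tissue, each the mean log2(FPKM + 1) of a list that holds no member: striatal, septal and white matter. The striatal index left a gap between 18 libraries at 1.73 to 2.52 and 6 at 3.22 to 4.60, so that a correlation is given within each set. The 6 were WT females 3 and 4, WT male 3, untrained KO males 1 and 3 and trained KO male 1, by label, so each arm holds at least 1. Foxp2 was at 4.26, 4.43, 3.41, 3.58, 7.94 and 3.05 FPKM in them. In the 18 others it was at 1.35 to 2.97 FPKM, below each of the 6. Within the 18 libraries Pearson's r of Foxp2 with the index was 0.604 (permutation p = 0.00804, adjusted p = 0.217 over 27 relations) and Spearman's rho 0.608. Within the 6 it was 0.943 (exact permutation p = 0.0194, adjusted p = 0.152) with rho 0.829. Both were positive and neither passed after adjustment. Male untrained library 3 had the highest index (4.60) and the highest Foxp2 (7.94 FPKM) of the 6, and r within them without it was not computed.

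Bcl11b was at 10.01, 12.6, 9.57, 10.5, 15.7 and 8.92 FPKM in the same 6 libraries and at 6.11 to 12.1 FPKM in the 18 others, so the sets overlapped. Within the 6, r with the index was 0.984 and rho 0.943 (exact permutation p = 0.00278 for r, adjusted p = 0.075). Male untrained library 3 was again the highest of the 6 in both, and r without it was not computed. Within the 18 r was 0.215 and rho 0.298 (permutation p = 0.393 for r, adjusted p = 0.589). Trained female library 2 combined 12.1 FPKM of Bcl11b with a striatal index of 1.74. How far striatal tissue sets the level of either gene was not tested.

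**Figure D4:**
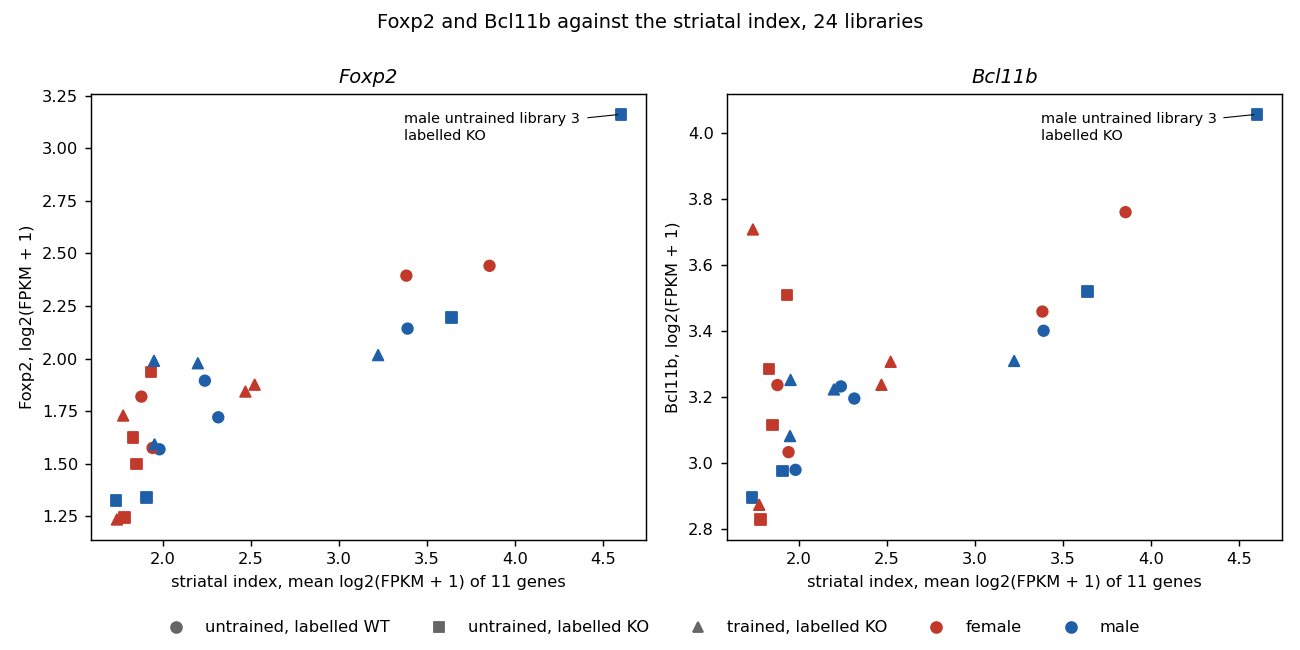
log2(FPKM + 1) of Foxp2 (left) and Bcl11b (right) against the striatal index in the 24 libraries, with arms as marker shapes and sexes as colours. The 6 libraries with an index over 3 hold the 6 highest Foxp2 values, and the high Bcl11b point at the left edge is trained female library 2.

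Of the 27 relations between a marker and an index, 10 passed by Pearson's r over 24 libraries. Without male library 3 there were 2, those of Foxp2 and Bcl11b with the striatal index, across the gap. By rho only Foxp2 then passed (0.809, permutation adjusted p = 0.00027), and Bcl11b did not (0.557, permutation adjusted p = 0.0896). Without the 2 libraries farthest from the median of the index r passed for Foxp2 (0.785, permutation adjusted p = 0.00054). For Bcl11b it did not (0.498, permutation adjusted p = 0.249). No inverse relation passed without male library 3. Tbr1 and the septal index gave r = -0.960 over 24 libraries (permutation p = 0.00244, adjusted p = 0.0182) but rho = -0.350 (permutation p = 0.0936, adjusted p = 0.421). Without that library it was r = -0.329 (permutation p = 0.127, adjusted p = 0.641). Etv1 kept an inverse rank order with the striatal index, across the gap, at rho = -0.550 (permutation p = 0.00599, adjusted p = 0.0539) and, without that library, -0.489 (permutation p = 0.0186, adjusted p = 0.167), and neither passed. In the 5 other libraries with a striatal index over 3 Tbr1 lay at 39.8, 39.8, 40.2, 40.9 and 41.4 FPKM, near its median of 41.6 FPKM.

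Among the 36 pairs of markers 13 passed over 24 libraries and 5 without male library 3. Slc17a7 took part in 4 of the 5. With Fezf2 its r was 0.781 and rho 0.811 over 23 libraries (permutation p = 1e-05 for each, adjusted p = 0.00036), with Tbr1 0.668 and 0.624 (permutation p = 0.00041 for r, adjusted p = 0.00492) and with Cux2 0.564 and 0.679 (permutation p = 0.00419 for r, adjusted p = 0.0336). The other markers did not pass in that direction: r with Slc17a7 was 0.407 for Rorb, 0.016 for Foxp2, -0.039 for Cux1 and -0.183 for Bcl11b. Slc17a7 and Etv1 went in opposite directions without male library 3, where r turned from 0.624 over 24 libraries to -0.669 (permutation p = 0.00039, adjusted p = 0.00492), with rho = -0.556 (permutation p = 0.00632, adjusted p = 0.0455). Both differed by sex, in opposite directions, and after subtraction of the means of arm and sex groups r was -0.253 (permutation p = 0.242, adjusted p = 0.513). The other 3 kept r = 0.712 (Fezf2), 0.63 (Tbr1) and 0.698 (Cux2) after it. No relation was corrected for GC content, and the part of base composition in them was not tested. Transcript GC is 56.6% for Slc17a7, 56.7% for Fezf2, 54.0% for Tbr1, 58.4% for Cux2, 43.8% for Etv1 and 55.4% for Bcl11b. Bcl11b and Foxp2 gave r = 0.571 (permutation p = 0.00466, adjusted p = 0.0336), with 0.948 within the arm labelled WT and -0.581 within the trained arm. In the trained arm, female library 2 held the highest Bcl11b (12.1 FPKM) and the lowest Foxp2 (1.35 FPKM). The r of that arm without it was not computed. Without the 2 libraries farthest from the median of the first gene, r stayed past the threshold for Fezf2 (0.727) and Tbr1 (0.645) with Slc17a7. It no longer passed for Cux2 with Slc17a7 (0.504, adjusted p = 0.148), Slc17a7 with Etv1 (-0.577, adjusted p = 0.068) or Bcl11b with Foxp2 (0.469, adjusted p = 0.198), though each kept its sign, and rho for Cux2 with Slc17a7 still passed (0.635, adjusted p = 0.0302).

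Ratios between markers of different depth are given as a description. Cux2 over Tbr1, upper against layer 6, had a lowest, median and highest value of 0.328, 0.392 and 0.450 in the arm labelled WT and 0.335, 0.397 and 0.514 in the untrained arm labelled KO. The trained arm gave 0.260, 0.356 and 0.369, a range that overlapped both, and its low end was male library 4, with female library 2 at 0.286. Male untrained library 3 held the top of its arm at 0.514, although both genes were low in it. Bcl11b over Fezf2 was 3.34 in that library while the other 7 untrained libraries labelled KO gave 0.292 to 0.517, and Foxp2 over Tbr1 was 0.629 against 0.0344 to 0.0876.

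Other markers of the same layers were read from lists that hold no member. For the genotype label 0 of 12 other upper-layer, 0 of 3 layer 4, 0 of 13 tested layer 5 and 0 of 13 layer 6 genes passed, and 1 of 12 general excitatory genes did, Itpka, a kinase of dendritic spines, which fell by 0.50 (SE 0.0949, limma adjusted p = 0.0102). Itpka (chr2:119742337-119751253) lies on the chromosome of Thbs1 (chr2:118111876-118127133). For training 0 genes of these lists passed. Over all tested genes 1.42% passed for the genotype label and 5.67% for training. Without male library 3 the genotype label, with 2.7% of all tested genes called, gave 4 more calls in these lists. Otof fell by 0.33, Pcp4 fell by 0.35, Rspo1 rose by 0.71 and Slc17a6 rose by 0.65, with limma adjusted p between 0.00567 and 0.0498. Slc17a6 is on the thalamic list as well. Without male library 3 training gave 1, Plxnd1, which fell by 0.31 (limma adjusted p = 0.0126), where 6.78% of all tested genes passed. In the trained arm labelled KO against the arm labelled WT, where 24.5% of all tested genes passed, 8 of 12 upper-layer genes did. Of these 4 were higher and 4 lower, with Otof (-0.53), Unc5d (-0.29) and Plxnd1 (-0.27) at the smallest p. Of the layer 6 genes 3 rose and 2 fell, with Sla (-0.43), Rprm (-0.45) and Moxd1 (0.22) first. Bcl6 rose by 0.38 among layer 5 genes and Rspo1 by 0.59 among layer 4 genes, and of the general excitatory genes 2 rose and 2 fell, with Itpka (-0.54), Slc17a6 (0.44) and Sv2b (-0.19) first. The median difference was -0.0765 for the upper-layer list, 0.292 for layer 4, 0.00379 for layer 5, 0.0998 for layer 6 and -0.0246 for the general excitatory list, against 0.00322 over all tested genes. With animal number as a covariate 22 of the 12572 tested genes were called in this comparison, against 3074 without it.

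Of the 10 partners in cortical fate 1 rose in that comparison and 1 fell, Id2 by 0.15, with 0 called for the genotype label and for training. Striatal markers stood lower in the arms labelled KO than in that labelled WT in all 10 tested genes for both comparisons, with medians of -0.263 and -0.453, and 0 of 10 passed in either. The median for the genotype label was -0.546 without male library 3, again with 0 of 10 called. Of 10 white matter genes 0 passed for the genotype label or training, with medians of -0.147 and 0.286. These were -0.0418 and 0.174 without male library 3. For training 2 genes then passed, Ermn (0.33) and Opalin (-0.48), where 6.78% of all tested genes did. For sex, where 28.6% of all tested genes passed, 2 of 13 layer 5 genes did, Pcp4 higher and Fam84b lower in males, 1 of 12 upper-layer genes, Pou3f2, lower, and 0 of 13 layer 6 genes. The excitatory transporter Slc17a6, which marks thalamic neurons more than cortical ones, was lower in males, at -0.38 (SE 0.140, adjusted p = 0.0431 in limma). Without male library 3, where 33% of all tested genes passed for sex, Pcp4 and Slc17a6 were not called. Called as higher in males were Sulf2 (0.11) of layer 5 and Cplx3 (0.17) of layer 6. So were Camk2a (0.13) and Slc30a3 (0.27) among general excitatory genes. Pou3f2 (-0.17) and Fam84b (-0.18) were called as lower. The share called was 8.33% of upper-layer, 15.4% of layer 5, 7.69% of layer 6 and 16.7% of general excitatory genes. Values of these genes with the GC correction are not given here.

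Markers of other cells are given for the trained arm labelled KO against the arm labelled WT, where 24.5% of all tested genes passed. Of 8 inhibitory markers Pvalb (0.47) and Sst (0.33), which mark interneuron classes, rose, a share near that background. Of 7 astrocyte markers Gjb6 rose by 0.32 and Slc1a3 fell by 0.21, and of 5 microglial markers 1 rose and 2 fell, P2ry12 most, by 0.30. The endothelial gene Ly6c1 rose by 0.53, and it was the 1 of 5 endothelial genes to rise with training as well, by 0.49 (SE 0.0928, limma adjusted p = 0.00763). Of 4 hippocampal markers Wipf3 rose by 0.51, and trained female library 2 held its highest value, 109.2 FPKM. The part of these cells in the differences of the 9 markers was not tested.

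The genes most like each marker were found by Pearson's r of log2(FPKM + 1) after subtraction of the means of arm and sex groups, over the 23 libraries without male untrained library 3, as a description. For Cux2 they were Cacnb3 (0.928), Zbtb45 (0.882) and Rasal1 (0.874), and for Slc17a7 B4galt2 (0.901), Fkbp1b (0.891) and Cmas (0.889). For Foxp2 they were Gprin3 (0.897), Syt6 (0.894) and Gpr52 (0.892). Of these the lists hold only Syt6, as a layer 6 marker. Before the subtraction Foxp2 also gave r = 0.827 with the striatal index over the 23 libraries, so these genes do not place its signal in layer 6. For Bcl11b they were Car12 (0.893), Wscd2 (0.889) and Sufu (0.883). The first for the others were Rcan2 for Cux1 (0.851), Ssbp3 for Fezf2 (0.849), Tbc1d5 for Etv1 (0.844), Layn for Rorb (0.827) and Pacrgl for Tbr1 (0.799). Libraries share depth and base composition, which such an r includes.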

How the data were processed

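Bulk poly(A) RNA-seq (TruSeq stranded mRNA kit, per the labels' protocols) of 24 mice was deposited by the authors as FPKM per gene for all libraries. The submitters' processing notes name mm10, FastQC 0.11.7, Trimmomatic 0.38, STAR 2.5.3a and featureCounts from Subread 1.6.3. From the steps between FPKM values, whole reads were recovered for 99.7% of the 15232 genes to within 0.01 read, and these gave the depths.

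Differences were tested on log2(FPKM + 1) with limma 3.58.1 (trend, R 4.3.3) over the 12572 genes with a mean of at least 1 FPKM, on the arms compared, with sex as a covariate (sex itself: all 24 libraries, with arm as a covariate). P-values were adjusted over all tested genes (Benjamini-Hochberg, threshold 0.05). On simulated data the fit recovered 200 of 200 genes changed 2-fold among 12572 for the comparison of the untrained arms, with 10 other calls. The simulation held normal noise, no outlying library and no smaller change. It therefore does not measure how often differences of the size seen in the markers would be called. Correlations used Pearson's r and Spearman's rho with 100000 permutations, or all of them below 10 libraries, adjusted over 27 or 36 relations (scipy 1.17.1).

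The 9 members and all lists were chosen with earlier results of these data known. Of the other lists, the 3 genes with the smallest p among those called per list and comparison were named, and for each member the gene most like it, or the first 3; 1 gene that this rule names is not reported here. Alternatives were limma-voom on the recovered reads, another pseudocount and filter, median-ratio and equal-sum scaling, a correction for GC content and length, animal number, replicate number, and each library left out. Settings that combine male untrained library 3 left out with another choice, and the split by striatal index, were chosen after seeing the data. Replicate numbers did not pair the libraries. Sequences come from RefSeq (GRCm38.p6), where 8 of the 9 members matched. One trained female carries no number in its title and is named replicate 4.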

Additional observations from a re-analysis of the deposited data

Results flagged for a closer look

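Within each arm of 8 libraries, the gap between the lowest or highest library and the next was divided by the whole range and set against Dixon's 95% critical value, for the 9 markers and 4 indices (striatal, septal, white matter and hippocampal), in 39 tests. The value was exceeded 14 times, where chance gives about 1 in 20, or 1.95. The tests are not independent, since the same libraries recur over markers and indices that vary together. Of the 14, 10 were values of male untrained library 3 labelled KO, which was known beforehand to stand apart. They were FPKM of 6.50 for Cux2, 12.6 for Tbr1, 4.69 for Fezf2, 15.7 for Bcl11b, 7.94 for Foxp2, 190.8 for Slc17a7 and 8.14 for Etv1, and indices of 3.66 for septal, 5.54 for white matter and 2.83 for hippocampal markers. Trained female library 2 gave 3, with 33.5 FPKM of Tbr1, 12.1 FPKM of Bcl11b and a hippocampal index of 3.92. The last was Cux1 in male library 1 labelled WT, at 6.64 FPKM, the highest of its arm.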

How the results depend on the processing

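In the untrained arms, and in trained KO against WT, 0 of the 9 markers were called under each alternative, replicate block included. With a replicate block, 0 were called for training and 1, Etv1, for sex, where 3889 of the 12572 tested genes were called. Same-numbered libraries deviated together with a mean correlation of 0.0247, -0.0701 and -0.102 in the comparisons of genotype label, training and trained KO with WT, so the numbers did not pair them. With the block 114 genes of all tested were called in the untrained arms, 29 in the training comparison and 1614 in trained KO against WT, in place of 179, 713 and 3074. Animal number as a covariate left 0 and 22 in the latter pair, and the GC correction left 326 in place of 3595 for sex. Equal sums per library turned the split of calls for sex to 972 higher and 2600 lower, from 1857 and 1738.

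For training 1 marker was called without male untrained library 3 (Etv1), 1 with the GC correction (Rorb), and without that library 1 with GC (Rorb), median-ratio, equal-sum or a pseudocount of 0.1 (Etv1). For sex 2 were called without trained female library 4 (Rorb and Etv1) and 3 without male library 3. With male library 3 left out, 4 were called with the replicate block (Cux2, Fezf2, Slc17a7 and Etv1), 3 with animal number or pseudocount 0.1, and 2 with GC, either scaling, or trained female library 2 also out. Of the 12572 tested genes, 852 were called for training without male library 3 and 1090 with the GC correction. For sex 3496 were called without trained female library 4 and 4148 (33%) without male library 3. Counts over all tested genes for the combined settings are not given here, so their marker counts stand without a background. The causes of these moves were not tested.

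Directions of differences that were not called turned in places. With animal number as a covariate Bcl11b for the genotype label was 0.0171. For training Tbr1 was -0.13, Fezf2 -0.00415, Bcl11b 0.0879, Foxp2 0.22 and Slc17a7 -0.0299. For trained KO against WT Rorb was -0.19, Bcl11b 0.23 and Foxp2 0.24, and for sex Cux2 was -0.0179 and Bcl11b 0.0321. With the GC correction Foxp2 was 0.0428 and Etv1 0.00357 for training, and Cux2 -0.0452 and Slc17a7 -0.0474 for sex. Foxp2 for training was 0.0268 with a pseudocount of 0.1, Tbr1 for trained KO against WT -0.00325 with equal sums, and Bcl11b 0.083 there with the replicate block. Leaving out 1 library at a time gave, for the genotype label, Cux2 -0.20 to 0.0197, Tbr1 -0.23 to 0.036, Fezf2 -0.31 to 0.0187, Bcl11b -0.13 to 0.0595, Slc17a7 -0.22 to 0.0255 and Etv1 -0.10 to 0.15. For training it gave Cux2 -0.20 to 0.0375, Tbr1 -0.00066 to 0.27, Bcl11b -0.10 to 0.0916, Foxp2 -0.10 to 0.18 and Etv1 -0.21 to 0.0437. For trained KO against WT Bcl11b ran from -0.10 to 0.0286, and for sex Tbr1 from -0.10 to 0.0722, Fezf2 from -0.0734 to 0.14 and Bcl11b from -0.0985 to 0.0272.

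Relations with indices numbered 10, and 6 with a pseudocount of 0.1, 2 without male library 3, 1 without the 2 farthest libraries, 2 within the arm labelled WT, 0 within the trained arm, 0 within the untrained arm labelled KO without male library 3, 2 and 0 within animal numbers under and over 1000, 19 after group means were subtracted (2 without male library 3) and 0 within the libraries of striatal index under 3 or over 3. Pairs of markers numbered 13, and in the same order 5 without male library 3, 2 without the 2 farthest, 2, 0 and 2 within arms (2 in the untrained arm labelled KO with that library), 7 and 0 within animal numbers, and 22 (7 without male library 3) after group means were subtracted. Slc17a7 with Etv1, r = 0.624 over 24 libraries, was -0.669 without male library 3, -0.577 without the 2 farthest, -0.703 within the arm labelled WT, -0.769 within the trained arm, -0.679 within the untrained arm labelled KO without male library 3, -0.721 within numbers over 1000 and -0.253 after group means were subtracted without that library. Bcl11b with Foxp2 was -0.581 within the trained arm, where female library 2 held the highest Bcl11b and the lowest Foxp2. Read depth limits Foxp2 and Rorb most.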
